A study of Mus musculus with 2 samples.

Results

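Histones are the proteins around which DNA is wound, and this account concerns the genes of mouse linker and variant histones in neural stem cells that received a small interfering RNA (siRNA) against Chd4 or a scrambled one. The 10 genes are H1f0, H1f2 and H1f10 (linker histones), H2az1, H2az2 and H2ax (H2A variants), Macroh2a1 and Macroh2a2 (macroH2A variants) and H3f3a and H3f3b (H3.3). They were chosen by symbol out of the 17359 genes of the deposited table. The table holds 7 of them under these symbols. The other 3 were found by Entrez number and RefSeq symbol: H2az1 is listed as H2afz (51788), H2az2 as H2afv (77605) and H2ax as H2afx (15270). All 10 had a mean of at least 1 TPM (transcripts per 1000000), the minimum for a gene to be compared.

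Each group was 1 library of neural stem cells, the dividing precursors of neurons and glial cells. The siSCR library is labelled with a control genotype and a scrambled siRNA, and the siChd4 library with Chd4 knockdown by an siRNA. The sources used here do not give the age, strain or origin of the cells, nor the sequence, dose and timing of the siRNAs. With 1 library per group there was no replicate, no test between the conditions and no measure of the spread between cultures. Every interval below is a 95% interval for counting error alone, which treats each read as a separate molecule although no molecular identifiers are recorded.

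Core histones are made in bulk while DNA is copied, from clustered genes whose messages mostly end in a stem-loop without a poly(A) tail. Variant histones come from genes outside those clusters, have polyadenylated messages and can be placed into chromatin at any time of the cell cycle. H2A.Z marks promoters and enhancers, H3.3 replaces H3 at active genes and in heterochromatin, H2A.X is phosphorylated around DNA breaks, and macroH2A carries a large extra domain and is common in repressed chromatin. Linker histone H1 binds where DNA enters and leaves the nucleosome. Among its genes, H1f2 lies in the replication-dependent histone cluster, while H1f0 is replication-independent and known for rising in cells that stop dividing. Chd4 is the ATPase of the NuRD complex, which moves nucleosomes and removes acetyl groups from histones.

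The promoters of 4 genes are shown: H1f2, the 1 gene past 1.5-fold, beside H1f0 of the same family, and the H2A.Z genes, whose folds were both below 1 and close to each other. The H3.3 genes also differed from each other, but the H3f3b window overlaps untranslated regions annotated in GENCODE M21. Its longest run free of them is 36 bases, so that pair is described by its motif matches only. Each run is the 250 bases before the RefSeq transcription start on the gene's strand (RefSeq, GRCm38.p6, a different build from the mm39 of the table). H1f2 is at chr13:23738557-23738806 (+), H1f0 at chr15:79027962-79028211 (+), H2az1 at chr3:137864237-137864486 (+) and H2az2 at chr11:6444444-6444693 (-). Capitals mark matches on either strand to CCAAT (the CCAAT box), TATANA (TATA-like letters), AAACACA (the H1 box of H1 promoters) and GGGCGG (the GC box).
H1f2: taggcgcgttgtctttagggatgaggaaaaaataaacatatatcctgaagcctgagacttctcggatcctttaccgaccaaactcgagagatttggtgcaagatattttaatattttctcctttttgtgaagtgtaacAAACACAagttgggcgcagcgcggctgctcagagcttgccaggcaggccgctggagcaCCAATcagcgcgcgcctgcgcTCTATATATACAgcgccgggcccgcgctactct
H1f0: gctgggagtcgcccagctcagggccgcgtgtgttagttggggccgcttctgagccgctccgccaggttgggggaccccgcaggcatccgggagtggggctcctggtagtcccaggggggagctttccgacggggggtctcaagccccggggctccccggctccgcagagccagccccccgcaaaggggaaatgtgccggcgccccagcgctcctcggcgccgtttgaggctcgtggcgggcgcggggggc
H2az1: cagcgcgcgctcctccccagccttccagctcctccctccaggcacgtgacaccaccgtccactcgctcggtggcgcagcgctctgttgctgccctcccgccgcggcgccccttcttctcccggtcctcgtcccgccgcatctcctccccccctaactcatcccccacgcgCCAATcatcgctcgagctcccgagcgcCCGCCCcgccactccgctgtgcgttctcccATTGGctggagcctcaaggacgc
H2az2: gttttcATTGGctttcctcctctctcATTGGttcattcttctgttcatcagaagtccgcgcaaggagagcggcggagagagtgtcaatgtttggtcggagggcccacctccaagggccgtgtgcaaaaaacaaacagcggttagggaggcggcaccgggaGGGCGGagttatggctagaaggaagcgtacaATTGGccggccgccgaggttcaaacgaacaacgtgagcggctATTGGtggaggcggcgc

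The H1f2 window held 1 H1 box, 1 CCAAT box and 4 overlapping TATA-like matches, the nearest of which begin 112, 54 and 27 bases before the start. In the H1f0 window none of the 4 letter patterns was found. CCAAT was found 2 times in the H2az1 window and 4 times in that of H2az2, with 1 GC box in each. For H3f3b, 4 CCAAT and 2 overlapping TATA-like matches were found, the nearer of the latter 27 bases before the start, and for H3f3a 1 CCAAT, 1 AAACACA and 4 GGGCGG, some of them overlapping. Of the other windows, H1f10 held 1 GC box, Macroh2a1 held 2, and in Macroh2a2 none of the letters was found. Over the 32851 promoter windows of the same length, 33.85% held CCAAT, 22.6% TATANA, 6.25% AAACACA and 32.7% GGGCGG. These matches describe letters only and say nothing of binding. H2ax was not among the promoters used here.

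The targeted gene itself, Chd4, stood at 203 TPM in siChd4 against 250 TPM in siSCR, a fold of 0.815 (0.795 to 0.836). The log2 ratio of Chd4 was -0.29, which is inside the 1.5-fold limit and a little below the lower quartile of all genes compared (-0.24). By size alone, the lower Chd4 level was therefore not unusual in these libraries. The interval covers counting error only, so how far the knockdown worked was not tested. The libraries held 19816811 (siSCR) and 20072009 (siChd4) estimated counts. Stem cell and radial glia markers were abundant, with all 12 above the minimum a summed level of 13791 TPM in siChd4 against 11632 TPM in siSCR, 2 genes at least 1.5-fold higher (Sox9 and Hopx) and 1 lower (Prom1). Neuron markers summed to 724 and 534 TPM, with 6 of 11 tested at least 1.5-fold higher in siChd4 and 0 lower. Oligodendrocyte lineage markers summed to 3018 and 2906 TPM, with 6 of 9 higher and 0 lower. Over all genes compared, 6.75% were that much higher and 4.47% that much lower. Map2 (516 and 427 TPM) held most of the neuron sum. Olig1 (0.996-fold) and Olig2 (0.989-fold) held most of the oligodendrocyte sum. The highest folds were 4.60 for Tubb3 and 7.34 for Sox10. Astrocyte markers summed to 770 and 744 TPM, with 0 of 7 higher and 2 lower. Microglia (39.7 and 9.53 TPM, most of it P2ry12, which was 5.28-fold higher), fibroblast (18.8 and 10.6 TPM, with 2 of 3 tested higher) and endothelial markers (5.86 and 3.70 TPM, with 0 of 3 higher) were low. Apart from P2ry12 and Cd68 (2.91 and 2.34 TPM), the microglia markers found were at most 0.31 TPM. The P2ry12 value alone therefore does not show microglia. Aif1, Dcn and Lum were at 0 in siSCR. In bulk samples, a different number of cells of a type and a different amount of RNA per cell cannot be told apart.

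Most of the histone genes had similar levels in the libraries. H1f2 had the lowest fold, at 0.647 of its siSCR level, and H3f3b the highest, at 1.26 times. On the scale of log2(TPM + 1), 1 of the 10 genes was at least 1.5-fold lower in siChd4 and 0 at least 1.5-fold higher. Over the 12882 genes compared, 4.47% were that much lower and 6.75% that much higher (576 and 870 genes, and 295 and 721 on the deposited FPKM, which is scaled by transcript length and library size). The share among the histone genes is 1 gene, so it cannot be set apart from this background. The median log2 ratio of the 10 genes was -0.05, beside -0.04 over all genes compared. Within the middle 50% of all genes (-0.24 to 0.17) lay 7 of the 10, with 2 below it and 1 above. The summed level of the 10 genes was 4561 TPM in siChd4 against 4610 TPM in siSCR.

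**Figure D1:**
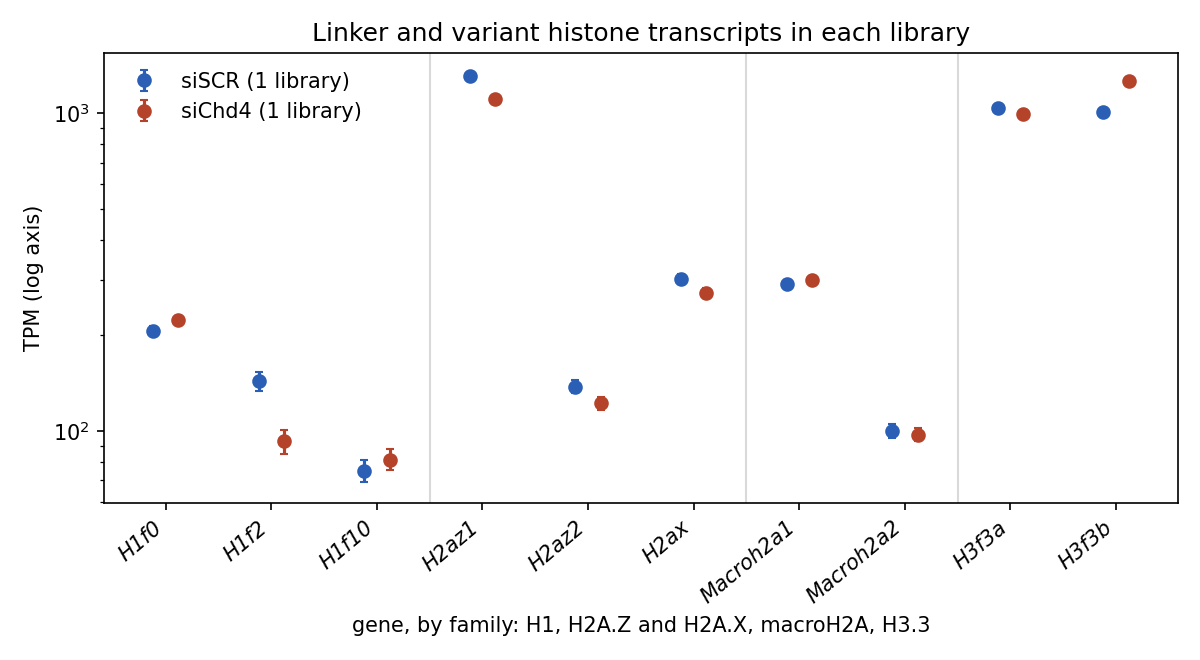
Level of each linker and variant histone gene (TPM, log axis) in the siSCR (blue) and siChd4 (red) library, with 95% counting intervals as bars. The H1f2 points lie well apart (143 TPM in siSCR and 92.8 in siChd4), those of Macroh2a2 nearly level.

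The genes fell into 3 tiers of abundance that were the same in both libraries. H2az1, H3f3a and H3f3b were between 998 and 1310 TPM, H2ax, Macroh2a1 and H1f0 lay between 207 and 301 TPM, and H1f2, H2az2, Macroh2a2 and H1f10 between 74.8 and 143 TPM. The lowest of them, H1f10, was still above 83.3% of all genes in siSCR and 85.3% in siChd4.

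The order within the tiers differed between the libraries. In siSCR it ran H2az1, H3f3a, H3f3b, then H2ax, Macroh2a1, H1f0, then H1f2, H2az2, Macroh2a2, H1f10. The counting intervals overlapped there between H3f3a and H3f3b, between H2ax and Macroh2a1, and between H1f2 and H2az2. In siChd4 it ran H3f3b, H2az1, H3f3a, then Macroh2a1, H2ax, H1f0, then H2az2, Macroh2a2, H1f2, H1f10. There, the intervals overlapped between Macroh2a2 and H1f2 and between H1f2 and H1f10.

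**Figure D2:**
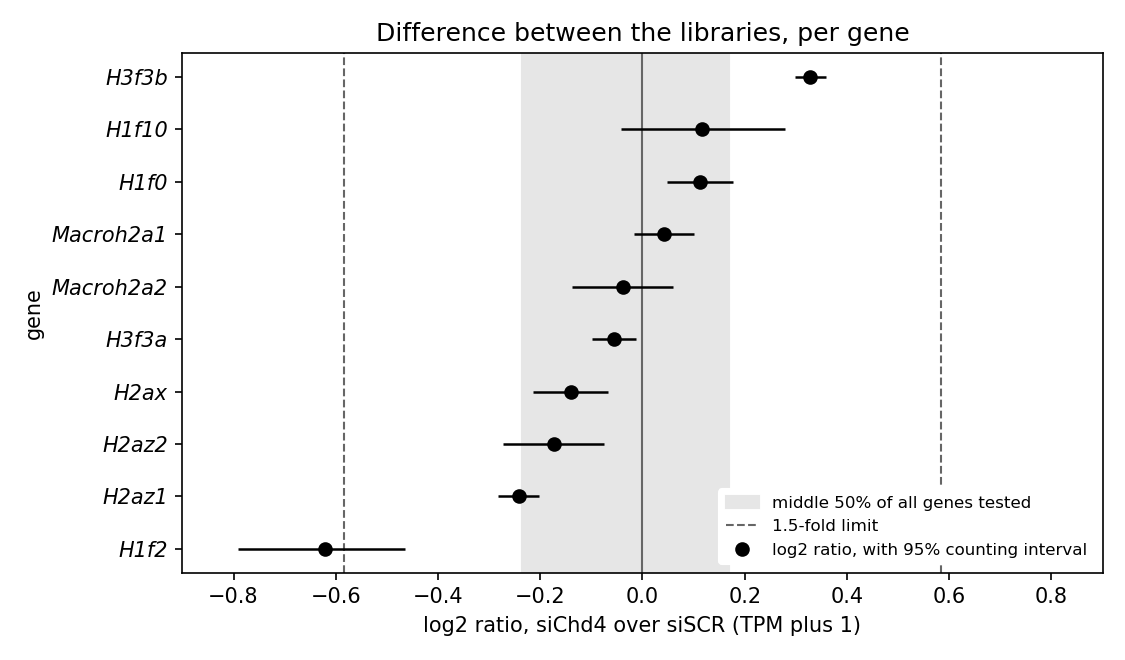
Log2 ratio of siChd4 over siSCR for each gene (points, TPM plus 1) with 95% counting intervals (bars), the middle 50% of all genes compared (grey band) and the 1.5-fold limits (dashed lines). H1f2 at -0.62 lies past the lower limit, H3f3b at 0.33 lies above the band and H2az1 at -0.24 at its lower edge.

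Among the linker histone genes, H1f2 was lower in siChd4 and H1f0 and H1f10 were not. Only H1f2 is replication-dependent, so classes of linker histone genes cannot be compared here. H1f2 (H1.2, Entrez 50708) was at 92.8 TPM in siChd4 against 143 TPM in siSCR, from 522 and 765 estimated counts. The fold was 0.647 (0.578 to 0.725) and the log2 ratio -0.62, and 3.73% of all genes compared had a lower ratio. It was the least covered gene of the 10 in siChd4, and its interval includes the 1.5-fold limit. Its sequence resembles that of the other clustered linker histone genes, with which it may share reads. With upper quartile scaling, with trimmed mean (TMM) scaling and on FPKM, its log2 ratio was -0.57, -0.57 and -0.56, which is inside the limit.

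H1f0 (H1.0) was at 223 TPM in siChd4 against 207 TPM in siSCR, a fold of 1.08 (1.03 to 1.13). H1f10 (H1X, the most divergent of the somatic linker histones) was at 81.2 and 74.8 TPM, with a fold of 1.09 (0.971 to 1.21) that includes 1. Ratios between genes of 1 library do not depend on how the libraries are scaled. By that measure, H1f0 stood at 1.44 times H1f2 in siSCR and at 2.41 times in siChd4, a 1.67-fold difference (1.48 to 1.88). The ratio of H1f10 to H1f2 differed by 1.68-fold (1.43 to 1.96), and that of H1f0 to H1f10 by 0.996-fold (0.885 to 1.12), an interval around 1.

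The make-up of the linker histone messages differed accordingly. Of the summed level of the 3 genes, H1f2 made up 33.7% in siSCR and 23.4% in siChd4, and H1f0 48.6% and 56.2%. H1f10 made up 17.6% and 20.4%. The sum itself was 398 TPM in siChd4 against 425 TPM in siSCR. The other clustered linker histone genes were near the floor in these libraries: H1f1, H1f3 and H1f5 had at most 3.33 estimated counts in a library, and H1f4 had 7.33 in siChd4 and 4.99 in siSCR. The oocyte linker histone gene H1f8, which lies outside the cluster, had 0 and 1. No fold is given for these genes.

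The H2A.Z genes were both lower in siChd4, by small amounts. H2az1 was the most abundant of the 10 in siSCR, at 1310 TPM, and was at 1107 TPM in siChd4, a fold of 0.845 (0.822 to 0.869). H2az2, which encodes a nearly identical protein, was at 122 TPM in siChd4 against 138 TPM in siSCR, a fold of 0.887 (0.828 to 0.949). Lower ratios were found for 24.3% and 32.1% of all genes compared, so neither is unusual in these libraries. The balance between them was level: H2az1 made up 90.5% of their sum in siSCR and 90.1% in siChd4, and the ratio of H2az1 to H2az2 differed by 0.954-fold (0.886 to 1.03). Their sum was 1230 TPM in siChd4 against 1448 TPM in siSCR.

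H2ax, whose messages occur both with a stem-loop and with a poly(A) tail, was at 273 TPM in siChd4 against 301 TPM in siSCR. Its fold was 0.907 (0.862 to 0.954), and 36.1% of all genes had a lower ratio. The ratio of H2az1 to H2ax differed by 0.932-fold (0.880 to 0.987). H2az1, H2az2 and H2ax were thus lower in siChd4 by the counting intervals, and each kept that direction under the 6 other scalings or units tried. Those settings shift the ratios by small amounts (H2ax lay between -0.15 and -0.08), so the kept direction says nothing of the spread between cultures. Over all genes compared, 55.3% had a log2 ratio below 0. The macroH2A genes, which also encode H2A variants, had intervals that include 1 (given below).

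The H3.3 genes encode the same protein, and the libraries differed more in H3f3b than in H3f3a. H3f3b was at 1268 TPM in siChd4 against 1010 TPM in siSCR, from 20523 and 15503 estimated counts, a fold of 1.26 (1.23 to 1.28). Its log2 ratio of 0.33 was above that of 85.5% of all genes compared and of 91.6% of the 4285 genes with a mean of at least 50 TPM. H3f3a was at 998 and 1037 TPM, a fold of 0.962 (0.934 to 0.992). Its log2 ratio was -0.06, and 0.00 on FPKM, so its direction is not settled by these libraries.

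The ratio of the H3.3 genes within a library cannot change with the scaling of whole libraries, so it was compared directly. H3f3b stood at 0.974 times H3f3a in siSCR and 1.27 times in siChd4, a difference of 1.30-fold (1.26 to 1.35). H3f3a made up 50.7% of the H3.3 messages in siSCR and 44.0% in siChd4. The H3.3 total was 2266 TPM in siChd4 against 2046 TPM in siSCR, a fold of 1.11. H3f3a has processed pseudogenes in the mouse genome (H3f3a-ps1 and H3f3a-ps2 in the RefSeq table) and near-identical coding sequence in other copies, so the reads given to H3f3a are less certain than those of a single-copy gene.

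**Figure D3:**
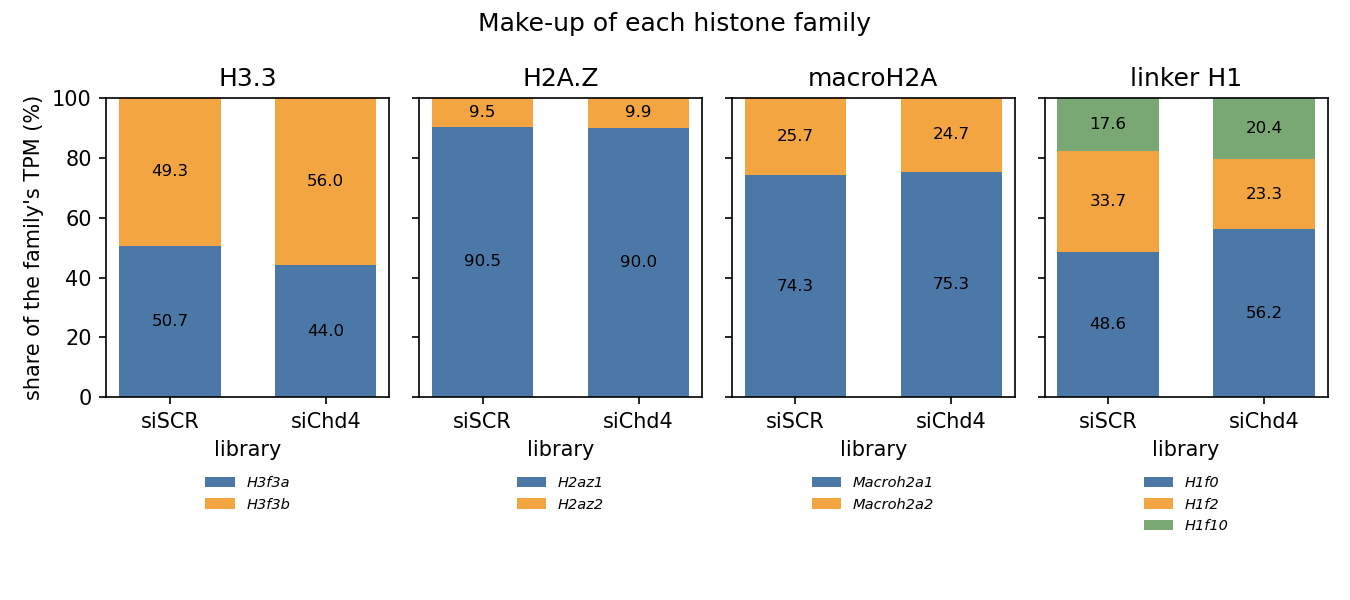
Share of each gene in the summed TPM of its family (%), for the siSCR and siChd4 library. The shares of H2A.Z and macroH2A differ by about 1 percentage point or less, while H3f3b goes from 49.3% to 56.0% and H1f2 from 33.7% to 23.4%.

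Both macroH2A genes had folds whose intervals include 1. Macroh2a1 was at 298 TPM in siChd4 against 289.5 TPM in siSCR, a fold of 1.03 (0.988 to 1.07), and Macroh2a2 at 97.5 and 100.2 TPM, a fold of 0.973 (0.909 to 1.04). The log2 ratio of Macroh2a2 was -0.04, and between 0.01 and 0.03 with upper quartile or TMM scaling and on FPKM. Macroh2a1 made up 74.3% of the pair in siSCR and 75.3% in siChd4, and the ratio of the genes differed by 1.06-fold (0.977 to 1.14). An interval that includes 1 does not show that the levels were equal: for Macroh2a2 it allows a fold between 0.909 and 1.04 from counting error alone. Splice forms of Macroh2a1 are not separated in the table.

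The other variant histone genes of a fixed list were mixed. Of its 18 symbols, 10 were found and 6 had a mean TPM of at least 1. Cenpa, the H3 variant of centromeres, was at 208 TPM in siChd4 against 271 TPM in siSCR, a fold of 0.769 (0.719 to 0.821). H2aj, listed as H2afj, was at 41.8 and 36.9 TPM (1.13-fold, 1.005 to 1.27). H2aw (44.8 and 48.8 TPM) and H2bu2 (26.1 and 23.4 TPM) had intervals that include 1. The 1 gene past 1.5-fold was H3c15, an H3 gene of a cluster of near-identical copies, at 10.7 and 5.17 TPM from 53.6 and 24.5 estimated counts (2.08-fold, 1.26 to 3.51). The sources used here do not say how reads were divided among such copies, so this value is uncertain.

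Replication-dependent core histone genes were close to the floor. Of 55 symbols, 40 were found and 14 reached the mean of 1 TPM, and 10 were at 0 in siChd4 and 11 in siSCR. Their summed level was 221 TPM in siChd4 against 229 TPM in siSCR, of which H2bc4 held 124 and 139 TPM. Past 1.5-fold were H2ac19 (21.9 and 7.47 TPM) and H2bc6 (2.0 and 0.76 TPM) on the higher side, and H3c3 (0 and 2.15 TPM) and H2bc8 (1.40 and 3.34 TPM) on the lower. H2bc6 had nearly equal estimated counts, 16.6 and 14.8, while the transcript length behind its TPM was 0.406 times as long in siChd4 relative to other genes. With TMM scaling of the counts, 1 gene of the list was past the limit on the higher side and 0 on the lower. H2ac19 belongs to a group of near-identical H2A copies. The sources used here do not say whether poly(A) messages were selected.

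Few genes that place, evict or read the variants passed 1.5-fold. Over all genes compared, 55.3% had a log2 ratio below 0 (between 47.7% and 55.3% under the other scalings), and the counts of list genes below 0 are to be read beside that share. The H2A.Z exchange list holds subunits of the SRCAP, p400 and INO80 remodellers and the H2A.Z chaperone Anp32e. In it, 0 of 24 genes passed the limit in either direction, 16 were below 0, and the median was -0.07, and 12 were below 0 with upper quartile scaling, on FPKM and once the trend with transcript length was subtracted (median 0.00). Its most abundant members were Morf4l1 (491 TPM in siChd4 and 466 in siSCR) and Morf4l2 (474 and 431 TPM). Anp32e, which removes H2A.Z, and Srcap, the ATPase that loads it, had folds of 0.782 (0.761 to 0.804) and 0.802 (0.767 to 0.838). Subunits of the same loading complex lay on the other side of 1: Vps72, which binds H2A.Z, was at 1.12-fold (1.01 to 1.24), and Znhit1 and Dmap1 at 1.10 and 1.09 with intervals that include 1. These 5 genes were picked after their values were seen. Over the list, 9 genes had a counting interval below 1, 3 above it and 12 including it. The share of all genes with such intervals was not computed. Abundant genes have narrow intervals, so these counts, here and below, do not set a list apart.

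For H3.3, all 8 chaperone genes had a log2 ratio below 0 (between 6 and 8 under the other scalings), with a median of -0.14 and 0 past 1.5-fold. The most abundant were Dek, an H3.3 chaperone, at 260 and 322 TPM, and Hira, which places H3.3 at active genes, at 84.8 and 95.2 TPM. Atrx, which places H3.3 in heterochromatin with Daxx and was picked after its value was seen, was the lowest at 0.712-fold (0.686 to 0.738). Among general and replication-coupled chaperones, 16 of 20 were below 0, with a median of -0.12. The 1 past the limit was the imprinted nucleosome assembly gene Nap1l5, at 217 and 115 TPM (1.89-fold, 1.78 to 2.001).

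In the H2AX signalling list, 15 of 18 genes were below 0, with a median of -0.25. Prkdc, the DNA-dependent kinase that phosphorylates H2A.X, was past the limit at 8.87 and 14.4 TPM (0.616-fold, 0.561 to 0.677). Eya2, of a family of phosphatases that act on H2A.X, was past it on the other side at 4.04 and 1.47 TPM (2.75-fold, 1.75 to 4.44). With the trend of the log2 ratio with transcript length subtracted, and on FPKM, Prkdc was inside the limit, 0 genes of the list were past it on the lower side, and the list's median was -0.13 and -0.165.

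Among genes that compete with or chaperone H1, 11 of 13 had a counting interval below 1, while those of Hmgn3 and Hmga2 include 1. The same share over all genes was not computed. Each of the 13 had a log2 ratio below 0 (12 with upper quartile or TMM scaling and on FPKM), with a median of -0.25 (-0.04 over all genes), and 1 passed 1.5-fold. That was Hmgn5, a nucleosome-binding protein that counteracts linker histones, at 32.5 TPM in siChd4 against 81.5 TPM in siSCR (0.399-fold, 0.359 to 0.443). The list includes Ptma, the H1 chaperone prothymosin alpha, and Hmgn2, Hmgb1 and Hmgb2, which bind the nucleosome or linker DNA. Many of these genes are abundant in dividing cells and have processed pseudogenes.

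**Figure D4:**
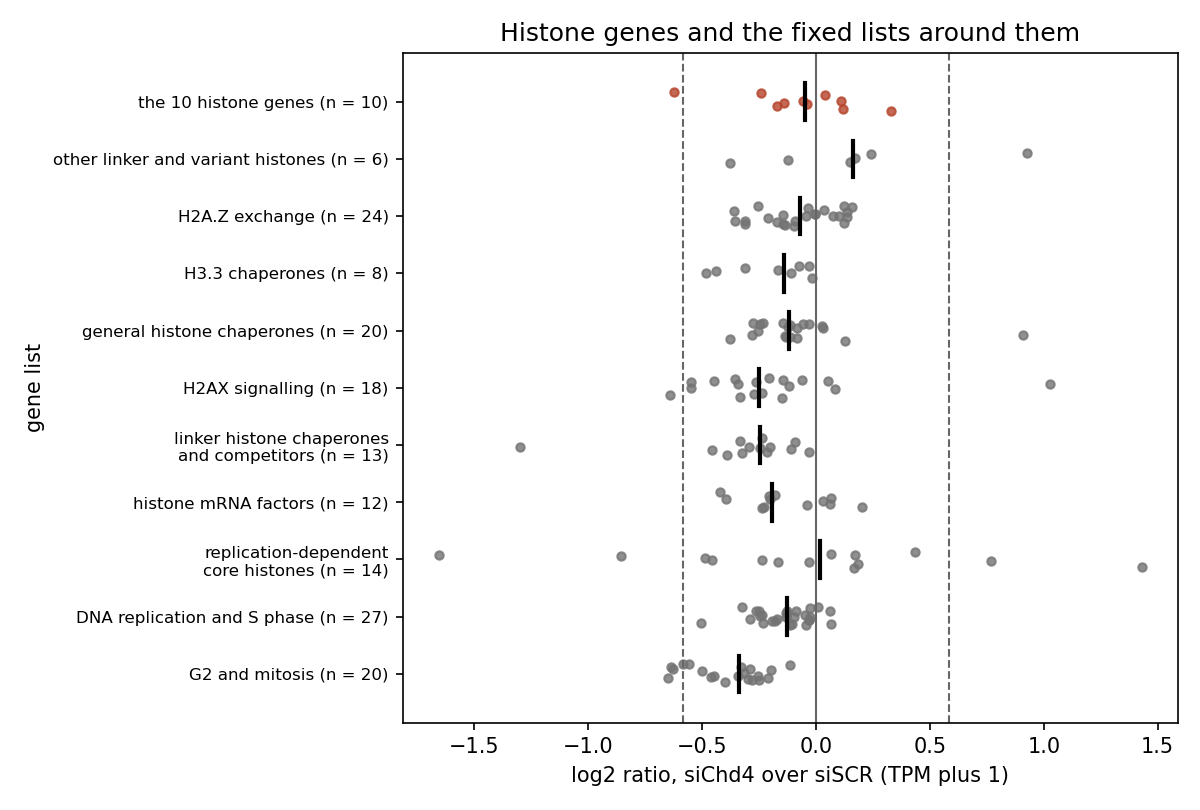
Log2 ratio of siChd4 over siSCR (TPM plus 1) for the 10 linker and variant histone genes (red) and for each gene of the fixed lists with a mean TPM of at least 1 (grey); black bars are medians and dashed lines the 1.5-fold limits. The median of the 10 genes is -0.05, and the G2 and mitosis list has the lowest median, -0.34.

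Of the cell cycle genes, 3 of 20 in the G2 and mitosis list and 0 of 27 in the S phase list were at least 1.5-fold lower. Over all genes compared, 4.47% were that much lower. All 20 genes of the G2 and mitosis list had a counting interval below 1. The same share over all genes was not computed, and genes with many counts have narrow intervals. The G2 and mitosis list had 20 of 20 genes below 0, a median of -0.34 and 3 genes past 1.5-fold (1 on FPKM): Ccnb1 (208 and 328 TPM), Ccnb2 (81.6 and 127 TPM) and Cenpf (50.7 and 78.9 TPM). The DNA replication and S phase list had 24 of 27 below 0 (18 to 24 under the other scalings), of which 16 had a counting interval below 1, a median of -0.12 and 0 past the limit, with Pcna at 811 and 912 TPM and Rrm2 at 609 and 725 TPM. Of the 10 histone genes, 5 had a counting interval below 1 (H1f2, H2az1, H2az2, H2ax and H3f3a). For 2 it was above 1 (H3f3b and H1f0), and for 3 it included 1. In the list of other variant histone genes, 1 was below (Cenpa), 2 above and 3 included 1. The 14 replication-dependent core histone genes compared were mixed, with 7 below 0, 7 above it and a median of 0.02. Summed, the G2 list was at 2918 TPM in siChd4 against 3807 TPM in siSCR, and the S phase list at 4437 and 4989 TPM. The part of the cell cycle genes in the lower H1f2 and H2A.Z values was not tested.

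The factors that process replication-dependent histone messages had a median log2 ratio below that of all genes compared (-0.04). Whether they stood apart was not tested. Of 12 genes, 8 were below 0, with a median of -0.19 (-0.07 with the length trend subtracted) and 0 past 1.5-fold. A counting interval below 1 was found for 6, above it for 1 and including it for 5. The most abundant were Srrt (163 and 142 TPM) and Ncbp1 (102 and 120 TPM). Slbp, which binds the stem-loop of these messages and was picked for that role after its value was seen, was at 106.5 TPM in siChd4 against 102 TPM in siSCR (1.05-fold, 0.975 to 1.12), an interval that includes 1. Npat, the activator of the clustered histone genes, picked in the same way, was at 24.2 and 32.1 TPM (0.753-fold, 0.697 to 0.814).

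Further properties of the 10 genes bear on their values. The transcript length behind the TPM was nearly the same in both libraries for each of them, between 0.980 and 1.02 times relative to other genes, so their TPM folds follow their counts. In GENCODE M21, exons of genes on the other strand overlap those of 6 of the 10: H1f0 (Gm49544, 7.93% of the exon bases), H1f10 (Gm5577, 17.5%), H2ax (Gm44335, 10.2%), H3f3a (Gm17275 and H3f3aos, 22.8%), Macroh2a1 (Gm47071, 7.36%) and Macroh2a2 (Aifm2, 10.7%). The sources used here do not say whether counting used strand. Without strand, reads from those overlaps cannot be told apart, while H1f2, H2az1, H2az2 and H3f3b have no such overlap in this annotation. At high levels the libraries differed less: of the 4285 genes with a mean of at least 50 TPM, to which all 10 belong, 2.40% were at least 1.5-fold lower and 2.59% higher, and 1.91% had a lower ratio than H1f2.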

How the data were processed

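RNA from mouse neural stem cells was sequenced from 1 siSCR and 1 siChd4 library. Per the file headers, the authors deposited FPKM, TPM and estimated counts per gene; 16.0% and 17.8% of the deposited counts are whole numbers, so they are estimated counts, which were rounded to whole numbers for intervals. The deposited TPM sum to 1000000 per library. Per the submitters' processing notes, the genome was mm39; for the aligner, counting tool and annotation the sources used here give no name.

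Members were matched by symbol, then by Entrez number (17306 of 17359 genes matched RefSeq, GRCm38.p6). The measure was log2 of TPM plus a pseudocount of 1, siChd4 over siSCR, for genes averaging 1 TPM or more, with a limit of 1.5-fold. Folds are of TPM, with exact Clopper-Pearson 95% intervals; levels have exact Poisson intervals, and ratios of 2 genes have Woolf intervals. The code was tested on simulated data. Python 3.11.15, scipy 1.17.1 and edgeR 4.0.16 (TMM factors only) were used. The members and the 10 gene lists and 7 marker lists were chosen with earlier results of these data known. Named were the 10 genes, Chd4, all other variant histone genes above the minimum, and of each list up to 3 genes per direction past 1.5-fold, or the 2 most abundant; other genes were named after their values were seen. Each group has 1 sample, so libraries are compared, not conditions.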

Additional observations from a re-analysis of the deposited data

How the results depend on the processing

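Of 60 values of the 10 genes under 6 other scalings or units, 52 stayed within the counting error. Differences between genes of a family can hardly move under a scaling of whole libraries or on FPKM. With the other pseudocount, TMM on counts and the length trend, 21 of 21 stayed within the counting error. At these levels a pseudocount changes a ratio very little, and TMM on counts differs mainly by transcript length shifts (0.980 to 1.02). Of these settings, mainly the length trend could have moved the differences. With upper quartile scaling the log2 ratios were 0.38 for H3f3b, -0.19 for H2az1 and -0.0051 for H3f3a, on FPKM 0.39, -0.18 and 0.0033, and for H3f3b 0.36 with median-of-ratios and 0.36 with TMM scaling; these shifts follow from the scaling of whole libraries, which moved the median of all genes from -0.04 to 0.01 and 0.02 with upper quartile scaling and on FPKM. H1f2 was below 0 in every setting (-0.63 to -0.56), but 0 of the 10 genes were past 1.5-fold lower with upper quartile scaling, with TMM and on FPKM, and 0 at a 2-fold limit. At a limit of 5 to 4, 1 of the 10 genes was higher (H3f3b).

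Over all genes, the numbers higher and lower were 1923 and 2209 at 5 to 4 and 291 and 81 at 2-fold; 295 were lower on FPKM and 533 higher with a mean TPM of at least 5. Of the genes of the fixed lists, 5 were higher and 7 lower. These numbers were 13 and 15 with no filter and 2 and 2 at 2-fold; 37 were lower at 5 to 4, 3 lower on FPKM and 3 higher with a mean of at least 5. Filters and limits change these numbers by construction. FPKM values were lower than TPM, for example for H1f2 38.5 against 92.8 in siChd4 and 57.1 against 143 in siSCR. A pseudocount of 1 therefore weighs more on FPKM, mostly for genes at low levels. How much of the FPKM numbers follows from this and from the scaling of whole libraries was not tested. No paired analysis was possible because there was a single library per group, and no library could be left out. Depth limits H1f2, H1f10 and the clustered histone genes most.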
